A study of Neurospora crassa with 6 samples.

Results

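The 10 genes described here encode enzymes that carry glucose to pyruvate and on to ethanol in the filamentous fungus Neurospora crassa. They were taken by locus tag from a table of 9730 genes, and all 10 were found there and tested. The list was chosen with earlier results of these data known. Enzyme names follow the gene list, and the symbols emp-1 (hexokinase), emp-3 (phosphofructokinase), fba (aldolase), pgk (pgk-1), emp-7 (enolase) and ace-8 (pyruvate kinase) are those of the RefSeq gene table. Polyadenylated RNA was sequenced from 6 liquid cultures: 3 belonged to a control strain, and the other 3 to a strain mutated in the clock gene period-2 (prd-2, NCU01019). The control strain, 328-4, carries the bd allele of ras-1 and is of mating type A. The mutant strain, 1810, carries the same ras-1 allele and mating type, together with prd-2 disrupted by the barR marker, so both groups share the bd background. All cultures were shaken in Bird medium containing 1.8% glucose, at 25 °C and under constant light, and were 48 h old at harvest. Each genotype was represented by a single strain, so the loss of prd-2 and any further difference between these strains cannot be told apart.

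Glycolysis first spends ATP to phosphorylate and split glucose, then recovers ATP as the resulting triose phosphates are oxidised and converted to pyruvate. Pyruvate either enters the mitochondrion, where the pyruvate dehydrogenase complex feeds the citric acid cycle, or is decarboxylated in the cytosol to acetaldehyde and reduced to ethanol, which regenerates NAD+ for the oxidation step. Neurospora respires and also makes ethanol when sugar is plentiful. One glycolytic gene, gpd-1, is known in Neurospora as the clock-controlled gene ccg-7. These cultures were sampled at a single age in light, so the values are levels and not rhythms.

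The values were FPKM (by definition fragment counts divided by transcript length and by library size), whose sum per culture ranged from 657467 to 688885. How the libraries were scaled to each other is not given in the sources used here. The number of fragments behind each value is unknown. FPKM is per length, so levels can be compared between genes. In bulk RNA of this kind, fewer cells of a type and less RNA per cell cannot be told apart. The transcript of prd-2 was listed at 26.5, 24.7 and 27.3 FPKM in control cultures 1, 2 and 3 and at 7.69, 6.29 and 6.37 FPKM in mutant cultures 1, 2 and 3. It was lower in every mutant culture, and signal at the locus remained. Of 4 genes of the conidial (asexual spore) stage, which a mycelial culture can contain, con-6 was higher in the mutant (log2 fold change 2.51), con-10 (-0.53) and con-8 (-0.92) were lower, and eas did not pass the test. The annotated span of con-6 overlaps that of NCU08768. The con-10 call was lost without control culture 1, control culture 2, mutant culture 1, mutant culture 2 or mutant culture 3 (limma adjusted p = 0.0871, 0.114, 0.0531, 0.0692 and 0.104). Summed over the 4 markers the level was 1795 to 1968 FPKM in control cultures and 1339 to 3171 FPKM in mutant cultures (highest in culture 1, where eas measured 2382 FPKM), and none of the 4 was at or near 0. The part of conidial RNA in the results below was not tested.

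Of the 10 enzymes, 7 were higher in the mutant, none was lower (also none at an unadjusted limma p under 0.05) and 3 did not pass the test. The 7 were hexokinase, glucokinase, phosphofructokinase, pgk-1, enolase, pyruvate kinase and adh-1. The test was limma on log2(FPKM + 1), with an adjusted p under 0.05 (Benjamini-Hochberg over 7797 genes with a mean of at least 1 FPKM). At the same threshold 24.0% of all tested genes were higher and 23.8% were lower in the mutant, so 47.8% were called in either direction. The median log2 fold change was 0.34 over the 10 enzymes, from -0.047 for aldolase to 1.07 for adh-1, and 0.009 over all tested genes. Between cultures of a strain the median deviation of the 10 enzymes had a standard deviation of 0.23 log2 units. Most of the enzymes rose and fell together between cultures, as described below, so the 7 calls are not independent. Control and mutant cultures did not overlap for 4 of the 10 (hexokinase, glucokinase, enolase and adh-1), all higher in the mutant. Of all tested genes 59.8% did not overlap, and 30.5% did not overlap with the mutant higher. The count of 7 depended on the processing and on single cultures. With all 6 cultures it was 3 with quantile normalization, 4 without the filter and 4 without the variance trend. It became 8 without control culture 1 and 6 without mutant culture 3, but 1 without control culture 2, control culture 3 or mutant culture 2, and 2 without mutant culture 1. Glucokinase was the 1 enzyme called in all 6 of these fits.

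**Figure D1:**
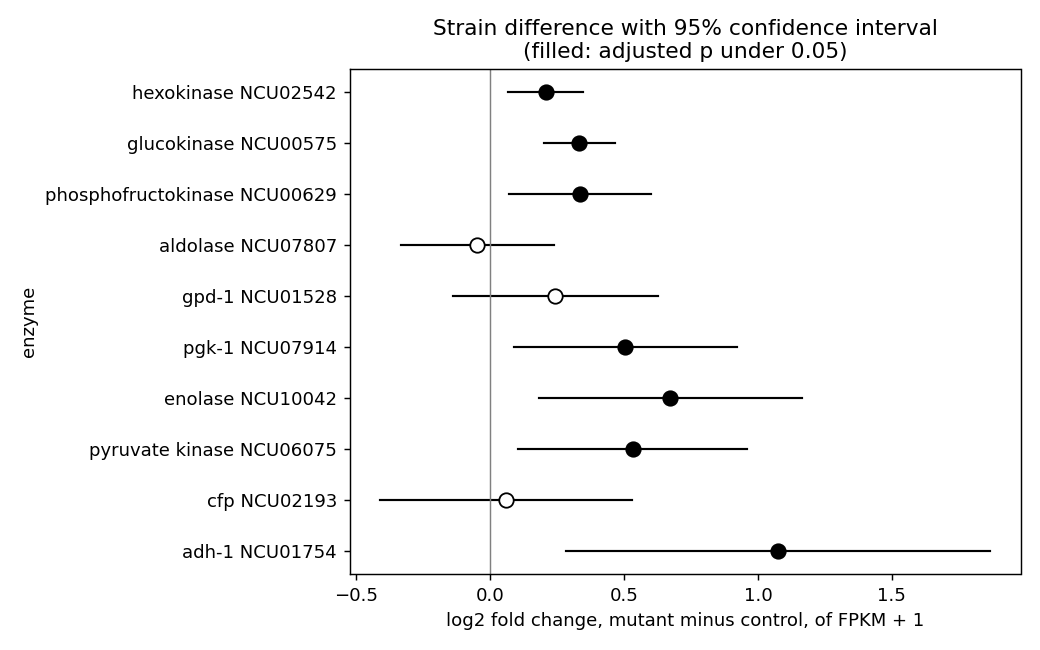
Log2 fold change (mutant minus control, of FPKM + 1) of the 10 enzymes in pathway order, with 95% confidence intervals from limma, n = 3 cultures per strain. Filled points have an adjusted p under 0.05: 7 enzymes lie to the right of 0, and the intervals of aldolase, gpd-1 and cfp span 0.

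The ATP-consuming upper part of the pathway comprised 4 enzymes, of which 3 were called higher in the mutant, against 24.0% of all tested genes. The log2 fold changes of these 3 lay between 0.21 and 0.34. Hexokinase (NCU02542), which phosphorylates glucose and other hexoses, measured 302, 299.6 and 294 FPKM in control cultures 1, 2 and 3 and 324, 365 and 348 FPKM in mutant cultures 1, 2 and 3. All mutant cultures lay above all controls, by a margin that was small beside the level itself. Its log2 fold change was 0.21 (limma adjusted p = 0.0241, SE 0.06), a ratio of means of 1.16. Glucokinase (NCU00575), the second hexose-phosphorylating enzyme, measured 83.0, 83.5 and 79.6 FPKM in control cultures and 106, 108 and 97.6 FPKM in mutant cultures. These groups were well separated, and the spread within each strain was narrow. Its log2 fold change was 0.33 (limma adjusted p = 0.00266, SE 0.06), and the adjusted p stayed between 0.0027 and 0.0131 over the 14 alternative settings. Without control culture 2, control culture 3, mutant culture 2 or mutant culture 3 the hexokinase call was lost (limma adjusted p = 0.0736, 0.0718, 0.0782 and 0.0633), as it was with quantile normalization (0.141).

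Phosphofructokinase (NCU00629) catalyses the first committed step of glycolysis. Its level was 173, 151 and 141 FPKM in control cultures 1, 2 and 3 and 205, 215 and 168 FPKM in mutant cultures 1, 2 and 3. The groups overlapped, because the highest control, culture 1, lay above the lowest mutant, culture 3. The log2 fold change was 0.34 (limma adjusted p = 0.0421, SE 0.11). The call was lost without control culture 2 (limma adjusted p = 0.116), control culture 3 (0.124), mutant culture 1 (0.119) or mutant culture 2 (0.129), and also on a scale with equal totals (0.0567), with quantile normalization (0.0902), without the filter (0.0507) and without the variance trend (0.0509). Aldolase (NCU07807) splits fructose 1,6-bisphosphate into triose phosphates. It measured 1159, 966 and 897 FPKM in control cultures and 973, 1091 and 859 FPKM in mutant cultures, and the ranges overlapped almost entirely. Its log2 fold change was -0.047 with a 95% confidence interval from -0.33 to 0.24 (limma adjusted p = 0.776). The sign of the aldolase estimate turned without control culture 1 (0.059) or mutant culture 3 (0.040).

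The annotated span of phosphofructokinase overlaps that of NCU00630, and whether read strand was used in assigning fragments is not given in the sources used here. NCU00630 averaged 5.52 FPKM in control cultures and 4.83 FPKM in mutant cultures, and was not called. The span of glucokinase overlaps that of a non-coding RNA, NCU14040, for which no value was used here. The values of both enzymes are uncertain to that extent.

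**Figure D2:**
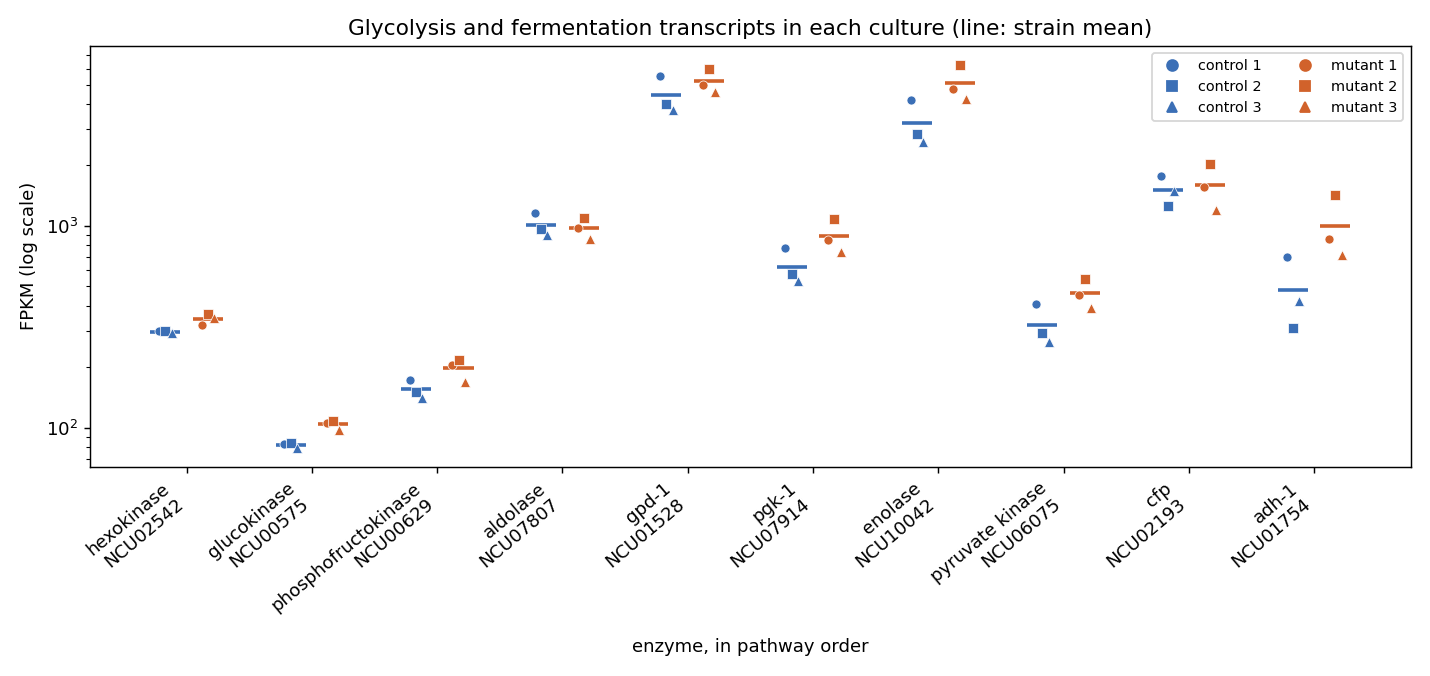
FPKM on a log axis for each enzyme in pathway order, with a marker per culture (control blue, mutant orange) and a line at each strain mean. The hexokinase and glucokinase groups are tight and separate, while control 1 and mutant 2 stand at the top of their groups for most of the enzymes further down the pathway.

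In the ATP-yielding lower part 3 of 4 enzymes were called higher in the mutant, against 24.0% of all tested genes. The log2 fold changes of these 3 were 0.51 to 0.67. Whether the parts of the pathway differ was not tested. The exception was gpd-1 (NCU01528), which encodes glyceraldehyde-3-phosphate dehydrogenase, the enzyme that oxidises the triose phosphate and reduces NAD+. It was the most abundant of the 10 transcripts, ranking 9 among all genes by mean FPKM in the controls and 6 in the mutants. Its level was 5496, 3984 and 3758 FPKM in control cultures 1, 2 and 3 and 4987, 5959 and 4605 FPKM in mutant cultures 1, 2 and 3. Control culture 1 lay above mutant cultures 1 and 3, while the other controls lay below every mutant. Between strains it differed by a log2 fold change of 0.24 (SE 0.16, 95% confidence interval -0.14 to 0.63, limma adjusted p = 0.254). Without control culture 1 it was 0.41 and passed the threshold (limma adjusted p = 0.0315), against a range of 0.0315 to 0.558 over the 14 alternatives.

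Phosphoglycerate kinase, encoded by pgk-1 (NCU07914), makes the first ATP of this part of the pathway. Its transcript measured 772, 579.6 and 529 FPKM in control cultures and 853, 1079 and 737 FPKM in mutant cultures. Control culture 1 exceeded mutant culture 3, so the groups overlapped. The log2 fold change of 0.51 (SE 0.18) stood at the threshold, with a limma adjusted p of 0.0497. It no longer passed without control culture 2 (adjusted p = 0.138), control culture 3 (0.144), mutant culture 1 (0.0978) or mutant culture 2 (0.141), nor on a scale with equal totals (0.053), with quantile normalization (0.0628), without the filter (0.0631) or without the variance trend (0.0577). The annotated span of pgk-1 overlaps that of NCU07913, which measured 129 FPKM in each strain on average and was not called (log2 fold change 0.006).

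Enolase (NCU10042), which makes phosphoenolpyruvate, measured 4212, 2845 and 2592 FPKM in control cultures 1, 2 and 3 and 4739.9, 6241 and 4259 FPKM in mutant cultures 1, 2 and 3. Every mutant lay above every control, although mutant culture 3 exceeded control culture 1 only narrowly. The mutant mean was 1.58 times that of the controls, a log2 fold change of 0.67 (limma adjusted p = 0.033, SE 0.21). The call was lost without control culture 2 (adjusted p = 0.105), control culture 3 (0.101), mutant culture 1 (0.0647) or mutant culture 2 (0.101).

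Pyruvate kinase (NCU06075), which converts phosphoenolpyruvate to pyruvate with formation of ATP, measured 412, 294 and 265 FPKM in control cultures and 456, 546 and 390.3 FPKM in mutant cultures. Here too control culture 1 exceeded mutant culture 3, and all other mutant values lay above all controls. This gave a log2 fold change of 0.53 (limma adjusted p = 0.0461, SE 0.18). Leaving out control culture 2 (adjusted p = 0.133), control culture 3 (0.132), mutant culture 1 (0.101) or mutant culture 2 (0.139) ended the call, as did quantile normalization (0.0785), no filter (0.0582) and no variance trend (0.0544). The annotated span overlaps those of NCU06076, at 192.5 FPKM in control cultures and 195 FPKM in mutant cultures, and of NCU06074, whose mean stayed below 1 FPKM in each strain.

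In the fermentation branch adh-1 was called higher in the mutant and cfp was not called, but their 95% confidence intervals overlapped. Pyruvate decarboxylase, encoded by cfp (NCU02193), removes carbon dioxide from pyruvate to give acetaldehyde, and in Neurospora the protein also assembles into cytoplasmic filaments. Its transcript measured 1767, 1255 and 1491 FPKM in control cultures 1, 2 and 3 and 1548, 2020.45 and 1199 FPKM in mutant cultures 1, 2 and 3. The ranges overlapped, and the lowest value of all was that of mutant culture 3. The log2 fold change was 0.060 (SE 0.20, 95% confidence interval -0.41 to 0.53, limma adjusted p = 0.828). Its sign turned without control culture 2 (-0.063), without mutant culture 2 (-0.13) and with quantile normalization (-0.026).

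Alcohol dehydrogenase, encoded by adh-1 (NCU01754), reduces acetaldehyde to ethanol. It measured 701, 312 and 426 FPKM in control cultures and 863, 1415 and 716 FPKM in mutant cultures. All mutants lay above all controls, but mutant culture 3 lay close to control culture 1. The mutant mean was 2.08 times the control mean, the largest ratio among the 10 enzymes. The log2 fold change was 1.07 (SE 0.34, 95% confidence interval 0.28 to 1.87, limma adjusted p = 0.0338). The standard error was also the largest of the 10, and the call was lost without control culture 2 (adjusted p = 0.103), control culture 3 (0.086), mutant culture 1 (0.0671) or mutant culture 2 (0.0974). The annotated span of adh-1 overlaps that of NCU01753, which averaged 31.4 FPKM in control cultures and 31.2 FPKM in mutant cultures.

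By mean FPKM the order in the controls was gpd-1, enolase, cfp, aldolase, pgk-1, adh-1, pyruvate kinase, hexokinase, phosphofructokinase and glucokinase. Neighbours in this order whose cultures overlapped were gpd-1 and enolase, pgk-1 and adh-1, adh-1 and pyruvate kinase, and pyruvate kinase and hexokinase. By mean FPKM in the mutants adh-1 stood above aldolase and pgk-1, in place 4, but it exceeded aldolase in only 1 of the 3 mutant cultures, culture 2. The values of adh-1, aldolase and pgk-1 overlapped each other in sequence, as did those of cfp with adh-1 and gpd-1 with enolase. The change of place amounted to a rank among all genes of 245 in the controls and 103 in the mutants for adh-1. Glucokinase was the least abundant of the 10 in both strains, ranking 1306 in the controls and 1108 in the mutants.

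Cultures of the same strain ranked alike for most of the enzymes. Control culture 1 was the highest control for 9 of the 10 enzymes, glucokinase being the exception, and mutant culture 2 was the highest mutant for all 10. Mutant culture 3 was the lowest mutant for 9, and control culture 3 the lowest control for 8. Over all tested genes, control culture 1 was the highest control for 35.5% and mutant culture 2 the highest mutant for 29.4%. The median deviation of the 10 enzymes from their strain mean was 0.28 log2 units in control culture 1, -0.10 in control culture 2 and -0.15 in control culture 3. In mutant cultures 1, 2 and 3 it was -0.03, 0.23 and -0.22. Over all tested genes the same medians lay between -0.01 and 0.01.

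Summed over the 10 enzymes, the level was 15077, 10770.0 and 10472 FPKM in control cultures 1, 2 and 3, or 2.24%, 1.63% and 1.59% of the summed FPKM of the culture. In mutant cultures 1, 2 and 3 it was 15055, 19039 and 13379 FPKM, or 2.27%, 2.76% and 1.95%. In this sum control culture 1 stood at the level of mutant culture 1 and above mutant culture 3. The sum mostly reflects the most abundant transcripts, gpd-1 and enolase. Taken enzyme by enzyme, 7 of the 10 lay above every control in mutant culture 1, 9 in mutant culture 2 and 4 in mutant culture 3. The same share over all tested genes was not computed. The median standard deviation within a strain was 0.26 log2 units for the 10 enzymes, 0.09 over all tested genes and 0.08 over the 1120 genes with a mean of at least 100 FPKM. It ranged from 0.06 for glucokinase and hexokinase to 0.55 for adh-1. A value above 0.2 was found for 6 of the 10 enzymes and for 12.1% of those 1120 genes. The labels give the same growth conditions for every culture, and what set these cultures apart was not tested.

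**Figure D3:**
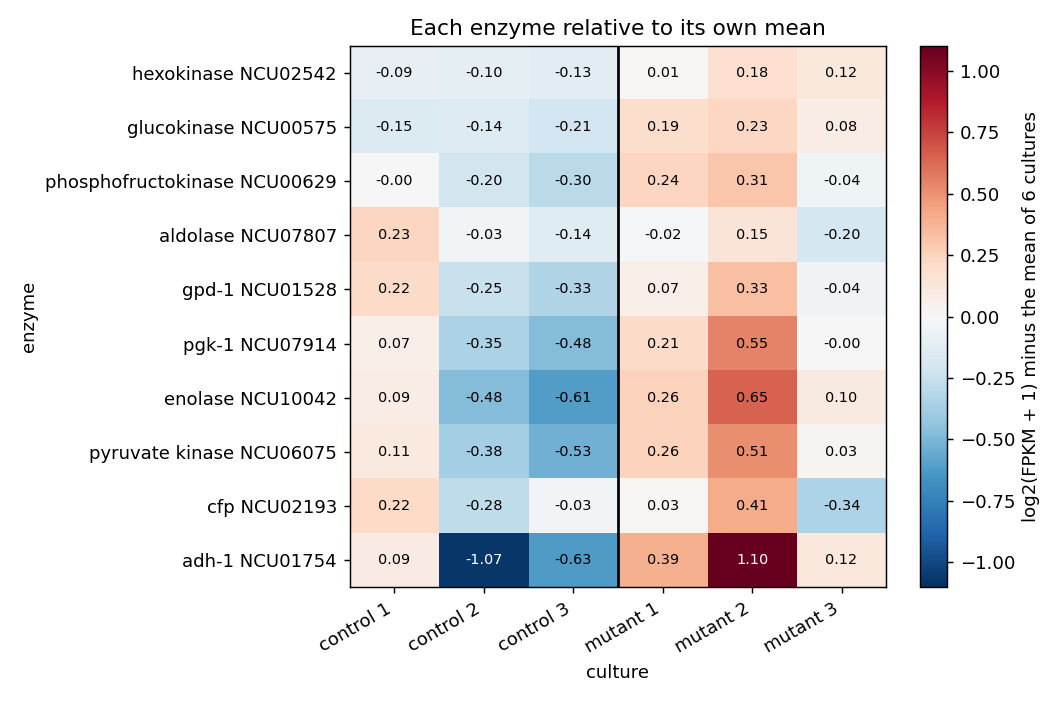
Log2(FPKM + 1) of each enzyme (rows, in pathway order) in each culture (columns), minus the mean of that enzyme over 6 cultures, in log2 units. Mutant 2 is above the mean for all 10 enzymes, control 3 is below it for all 10, and the deviations are largest for adh-1 (from -1.07 to 1.10) and smallest for hexokinase (from -0.13 to 0.18).

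Ratios between enzymes within a culture were compared for 5 pairs. Both cfp and pyruvate kinase occur in more than a single pair, so the pairs are not independent. How often ratios of other gene pairs separate the strains was not computed. With 3 cultures against 3 the exact two-sided permutation test cannot give a p below 0.1, so no pair could pass a threshold of 0.05. The log2 ratio of cfp to adh-1 was 1.33, 2.003 and 1.81 in control cultures 1, 2 and 3 and 0.84, 0.51 and 0.74 in mutant cultures 1, 2 and 3. The groups did not overlap, and their means differed by -1.01 (exact permutation p = 0.1, 0.125 adjusted over the 5 pairs, n = 3 per strain). Transcripts of cfp thus exceeded those of adh-1 in every culture, and by less in every mutant. For pyruvate kinase over cfp, the log2 ratio was between -2.49 and -2.09 in the controls and between -1.89 and -1.62 in the mutants, a difference of 0.47 with separated groups (exact permutation p = 0.1, adjusted 0.125, n = 3 per strain).

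The log2 ratio of gpd-1 to pgk-1 was nearly constant within the controls, at 2.83, 2.78 and 2.83 in cultures 1, 2 and 3. In the mutants it was lower, at 2.55, 2.46 and 2.64 (difference -0.26, exact permutation p = 0.1, adjusted 0.125, n = 3 per strain). These genes encode consecutive steps, and in control culture 1, where both were high, their ratio was close to that of the other controls. With quantile normalization the difference was -0.11. Hexokinase over glucokinase was likewise tight in the controls (1.85, 1.83 and 1.87) and lower in the mutants (1.61, 1.75 and 1.82), a difference of -0.13 (exact permutation p = 0.1, adjusted 0.125, n = 3 per strain). Without mutant culture 1 that difference was -0.067. Phosphofructokinase over pyruvate kinase overlapped between strains, with a difference of -0.20 (exact permutation p = 0.3, adjusted 0.3, n = 3 per strain).

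**Figure D4:**
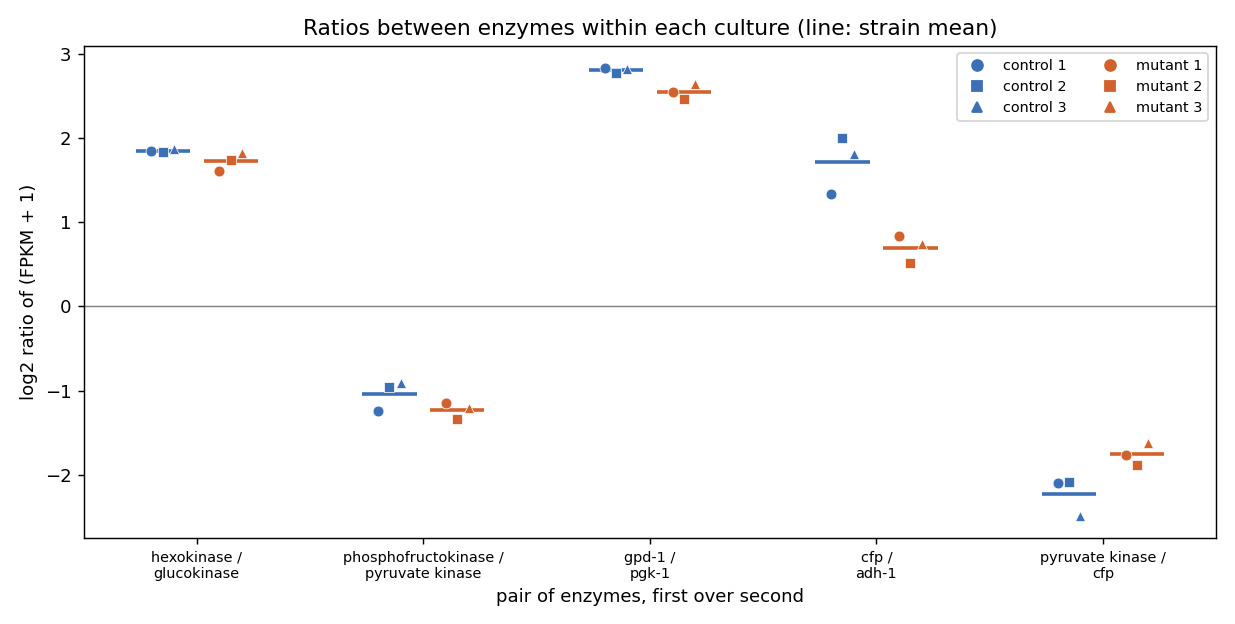
Log2 ratio of (FPKM + 1) between 5 pairs of enzymes within each culture (control blue, mutant orange, line at the strain mean). The cfp to adh-1 ratio shows the widest gap, -1.01 between strain means, and only phosphofructokinase over pyruvate kinase overlaps.

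Other genes of central carbon metabolism were examined beside these 10. The gene gpi-1 (NCU07281, phosphoglucose isomerase, which interconverts glucose 6-phosphate and fructose 6-phosphate) measured 320, 259 and 239 FPKM in control cultures and 355, 416 and 328 FPKM in mutant cultures. It was higher in every mutant culture than in any control (log2 fold change 0.43 with SE 0.13, limma adjusted p = 0.0284). That call was lost without control culture 2 (adjusted p = 0.09), control culture 3 (0.085), mutant culture 1 (0.062) or mutant culture 2 (0.0874), and with quantile normalization (0.0533). NCU07550, whose span overlaps that of NCU07549, did not pass (log2 fold change -0.15, limma adjusted p = 0.313), and neither did emp-6 (NCU02252; log2 fold change 0.56, SE 0.26, limma adjusted p = 0.119). Without control culture 1 emp-6 passed, at 0.85 (limma adjusted p = 0.00749), and the change of NCU07550 was -0.041. With quantile normalization NCU07550 was called lower (-0.25, limma adjusted p = 0.0375). In all 3 of these genes control culture 1 was the highest control and mutant culture 2 the highest mutant, as for most of the 10 enzymes.

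Mutants of the ace-2, ace-3 and ace-4 genes of Neurospora require acetate and lack pyruvate dehydrogenase complex activity. All 3 genes were called higher in the prd-2 mutant, where 24.0% of all tested genes were higher and 23.8% lower. Their list, set by symbol prefix, was added after the data were seen. The largest change was that of ace-4 (NCU07659), which measured 171, 191 and 195 FPKM in control cultures 1, 2 and 3 and 274, 302 and 305 FPKM in mutant cultures 1, 2 and 3 (log2 fold change 0.66 with SE 0.07, limma adjusted p = 0.000372). The change of ace-3, whose span overlaps that of NCU03003, was 0.47 (limma adjusted p = 0.00175, SE 0.07), and that of ace-2 was 0.32 (limma adjusted p = 0.0442, SE 0.11). The ace-2 call was lost without control culture 1 (adjusted p = 0.0774), control culture 2 (0.0807), mutant culture 2 (0.105) or mutant culture 3 (0.126), on a scale with equal totals (0.0667), with quantile normalization (0.155), without the filter (0.0535) and without the variance trend (0.0518).

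Of 16 genes with the symbol prefix tca, used for citric acid cycle enzymes, 7 were higher, 2 were lower and 7 did not pass, with a median log2 fold change of 0.21. Of all tested genes, 24.0% were higher and 23.8% lower. The largest changes were those of tca-10, with a level of only 6.01 FPKM in control cultures and 12.01 FPKM in mutant cultures (log2 fold change 0.91, limma adjusted p = 0.00191), tca-4 (0.77, limma adjusted p = 0.00129) and tca-11 (0.65, limma adjusted p = 0.0263). The tca-10 span overlaps that of NCU00960. The level of tca-11 was also low, at 5.70 FPKM in control cultures and 9.66 FPKM in mutant cultures, and its groups overlapped. The tca-11 call was lost without control culture 2 (adjusted p = 0.0808), control culture 3 (0.08), mutant culture 2 (0.0859) or mutant culture 3 (0.0798). The count of lower genes was 1 without control culture 1, control culture 2, mutant culture 1 or mutant culture 2. Within the controls these genes ranked differently from the glycolytic enzymes. Control culture 1 was the lowest control for 12 of the 16 tca genes and for all 3 ace genes. The share of all tested genes lowest in that culture was not computed. Control culture 1 was the highest control for 2 of the 16 tca genes, for 9 of the 10 enzymes above and for 35.5% of all tested genes.

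**Figure D5:**
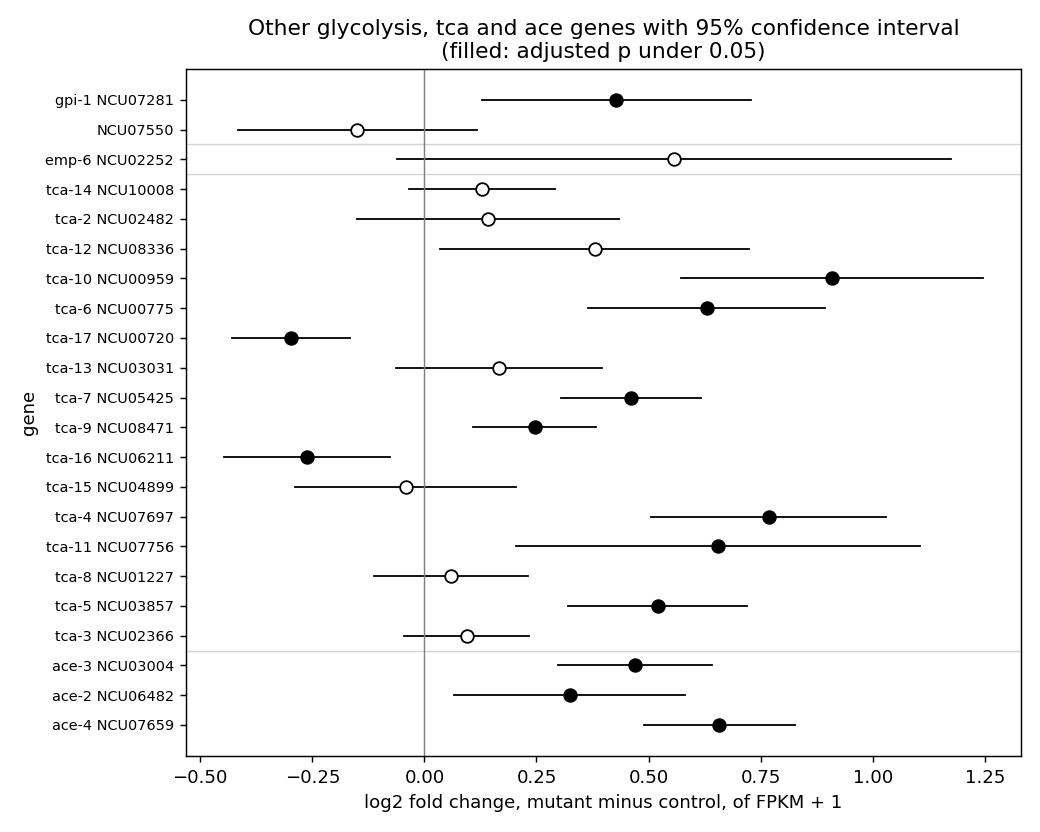
Log2 fold change (mutant minus control, of FPKM + 1) with 95% confidence interval for 22 other genes, in 4 blocks from top to bottom: gpi-1 and NCU07550, emp-6, the tca genes and the ace genes. Filled points have an adjusted p under 0.05, and all 3 ace genes lie to the right of 0.

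The genes whose profile over the 6 cultures lay nearest to that of adh-1 were NCU01652, NCU05850 and pdx-4 (NCU08269), at Euclidean distances of 0.46, 0.55 and 0.55 log2 units after each gene was centred on its own mean. NCU01652 measured 71.1, 40.5 and 38.0 FPKM in control cultures 1, 2 and 3 and 88.1, 123.9 and 69.5 FPKM in mutant cultures 1, 2 and 3. Like adh-1, it was highest in mutant culture 2, and its control culture 1 was well above the other controls. NCU05850 averaged only 4.28 FPKM in control cultures and 7.92 FPKM in mutant cultures and was not called (limma adjusted p = 0.0795). The level of pdx-4 averaged 84.0 FPKM in control cultures and 225 FPKM in mutant cultures. It was called higher (log2 fold change 1.39, limma adjusted p = 0.00315), and its annotated span overlaps that of NCU08270. These genes were chosen by their distance to adh-1, so their likeness to it follows from the choice. With 2 strains and 6 cultures, such a likeness describes these cultures alone. None of the 20 genes flanking the 10 enzymes on the NC12 assembly is itself among them. Of the 16 flanking genes that were tested, 5 were called, all higher in the mutant, where 24.0% of all tested genes were higher and 23.8% lower.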

How the data were processed

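RNA from 3 control and 3 mutant cultures was sequenced as paired-end reads of 150 bp from directional poly(A)-selected libraries, per the labels' protocols. The deposited values are FPKM, computed by the authors for each gene in each culture. STAR and Cuffnorm are named in the submitters' processing notes, without roles or versions. The genome build, the annotation and the scaling between libraries are not given in the sources used here. No column of another sample was present. Depth is unknown, so no counting interval is given.

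Values were transformed as log2(FPKM + 1), and genes with a mean of at least 1 FPKM over the 6 cultures were tested with limma 3.58.1 and R 4.3.3, with moderated variances that follow a mean trend, adjusted by Benjamini-Hochberg over 7797 genes at a threshold of 0.05. The fitting code was tested on simulated data. On that log scale the change of a gene with low values is understated. SE is limma's moderated standard error. Ratios were compared with exact permutation tests in Python 3.11.15 with scipy 1.17.1. Nothing in the labels says whether cultures of a strain came from separate inocula. The p-values weigh the strain difference against the spread between these cultures, which need not be independent. That prd-2 is NCU01019 comes from knowledge of the study, not from the labels or the gene table. Symbols and overlapping or flanking genes came from the RefSeq table of NC12, in which all 10 enzymes were found. It holds no product names, so the planned lists by product were replaced by gpi-1, NCU07550 and, added after the data were seen, symbol prefixes.

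The 10 enzymes and the lists were chosen with earlier results of these data known. The named genes were the 10 enzymes, prd-2, the 3 called genes of largest change in each further list, the 3 genes nearest to the enzyme with the largest change, and overlapping genes. Other genes of the lists with 3 or fewer members were named as well. The alternatives were a pseudocount of 0.1, no filter, a minimum mean of 5 FPKM, rescaling to equal totals (TPM scale), quantile normalization, centring on the median, a variance prior without trend, the replicate number as a block, and omission of each culture in turn.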

Additional observations from a re-analysis of the deposited data

How the results depend on the processing

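The number of enzymes called higher was 7 in the reported fit, 4 without the filter, 3 with quantile normalization and 4 without the variance trend, and 5 to 7 in the remaining alternatives with all cultures. It ran from 1 to 8 across the fits that left out a culture. No enzyme was called lower in any of the 14 alternatives. The median over the 10 enzymes ran from 0.29 to 0.42 when a culture was left out. Genes called over the whole table numbered 3725, and 2892 to 3465 without a culture.

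Without the filter the calls of phosphofructokinase (0.34), pgk-1 (0.51) and pyruvate kinase (0.53) were lost, and the same 3 without the variance trend, with the same values (0.34, 0.51 and 0.53). On the TPM scale phosphofructokinase (0.30) and pgk-1 (0.47) were lost. With quantile normalization hexokinase (0.10), phosphofructokinase (0.26), pgk-1 (0.43) and pyruvate kinase (0.44) were lost, cfp turned to -0.026, tca-8 (NCU01227) turned to -0.045, and the gpd-1 to pgk-1 ratio differed by -0.11. The cause was not tested. The median of all tested genes moved by less than 0.1 under every scaling.

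Across the fits leaving out a culture, log2 fold changes ran from 0.17 to 0.25 for hexokinase, 0.30 to 0.38 for glucokinase, 0.27 to 0.44 for phosphofructokinase, -0.13 to 0.059 for aldolase, 0.14 to 0.41 for gpd-1, 0.36 to 0.66 for pgk-1, 0.52 to 0.88 for enolase, 0.40 to 0.72 for pyruvate kinase, -0.13 to 0.25 for cfp and 0.79 to 1.39 for adh-1. Differences in the log2 ratio ran from -0.17 to -0.067 for hexokinase over glucokinase, -0.30 to -0.13 for phosphofructokinase over pyruvate kinase, -0.31 to -0.22 for gpd-1 over pgk-1, -1.21 to -0.87 for cfp over adh-1 and 0.34 to 0.54 for pyruvate kinase over cfp. Among uncalled genes, the sign also turned in these fits for tca-15 (NCU04899; from -0.14 to 0.020), tca-8 (-0.013 to 0.11) and eas (NCU08457; -0.074 to 0.88).

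With the replicate block, adh-1 kept its change (1.07) but not its call (limma adjusted p = 0.0667), and 6 enzymes were called. The calls of tca-11 (limma adjusted p = 0.0698) and tca-16 (0.0607) were also lost under the block, which left 1 tca gene called lower. Deviations of same-numbered cultures correlated at -0.104, -0.175 and 0.068 across genes for numbers 1, 2 and 3, so the numbers are not taken to pair the cultures. Depth is unknown and limits what can be said of low values.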
